A study of Mus musculus with 18 samples.

Results

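The insulin-like growth factor 1 (IGF1) axis was examined here as 9 listed genes out of 49184 genes measured in mouse knee cartilage after rupture of the anterior cruciate ligament (ACL). They are the ligand gene Igf1, the receptor genes Igf1r and Igf2r, and the binding protein genes Igfbp2, Igfbp3, Igfbp4, Igfbp5, Igfbp6 and Igfbp7. The list was taken by gene symbol. All 9 genes passed the filter on low counts, as did 21129 genes in the fit of 15 libraries and 21262 in the fit of 18.

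The 18 RNA-Seq libraries came from wild-type male C57Bl/6J mice, 12 weeks old at rupture, with no transgene or deletion in any group. A single compressive load ruptured the ACL of the right knee, and cartilage of that knee was taken 1 day (3 libraries, day 1 injured) or 7 days later (3 libraries, day 7 injured). The unloaded left knees of loaded mice gave 3 day 1 contralateral and 3 day 7 contralateral libraries, and knees of unloaded mice gave 6 naive libraries, which the labels place at day 7. Each library held cartilage pooled over animals, 4 mice per pool by the series description. A schematic of the design shows instead 2 mice per day 1 pool, 4 per day 7 pool, and 6 naive mice with 2 knees per pool. Contralateral knees belong to mice that were loaded and given analgesia, and left and right libraries of a day can stem from the same mouse pool. By the schematic the left and right knees of naive mice were also pooled apart, so that naive libraries would come in left and right pairs from the same mice. The study allowed for shared pools with an estimated correlation. The labels do not say which libraries share one, so all libraries were fitted here as independent samples. The naive n of 6 can therefore overstate the number of independent pools, p-values against naive may be too small, and those of injured against contralateral knees take no account of pairing.

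IGF1 acts through IGF1R, a tyrosine kinase receptor of the cell surface, and in cartilage it is known as a stimulus for the synthesis of aggrecan and type II collagen by chondrocytes. IGF2R, the cation-independent mannose 6-phosphate receptor, takes IGF2 into the cell for breakdown and carries lysosomal enzymes. The IGF binding proteins (IGFBPs) hold IGFs outside the cell, can block or prolong their action, and are themselves cut by proteases such as PAPPA and HTRA1. IGFBP7 binds IGFs only weakly and is found in the extracellular matrix.

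Libraries held between 16074762 and 41794005 estimated counts, with a median of 25465706. One library stood apart before any comparison. In day 7 contralateral replicate 1, the 10 most abundant genes took 42.5% of counts, against 16.6% to 29.8% in the other libraries. This share was 26.4% to 29.8% in day 7 injured libraries, above the 19.6% to 25.9% of naive libraries, and its part in the day 7 differences was not tested. Day 7 contralateral replicate 1 had a summed level of 10 osteoblast and osteocyte markers of 53100 counts-per-million (CPM), mostly of Col1a1. The other day 7 contralateral libraries had 16400 and 22700 CPM. In replicate 1 the chondrocyte marker sum was 13500 CPM and the erythroid sum 65200 CPM, each the highest of any library. Fold changes against the day 7 contralateral group are therefore given with and without replicate 1.

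The start sites of 3 binding protein genes are shown because these genes rose in both day 7 comparisons below and their RefSeq start lies within 26 bases of the start of the transcript with the most estimated counts in naive libraries. Each window is RefSeq sequence on build GRCm38.p6 and runs from 250 bases before to 50 bases after the start, in the direction of transcription. Capitals mark TATAAA, the core motif bound by the TATA-binding protein, and GGGCGG, the motif bound by Sp1, both searched on either strand. On the other strand the Sp1 motif reads CCGCCC. The windows are chr11:7213874-7214173, minus strand, for Igfbp3, chr11:99040994-99041293, plus strand, for Igfbp4, and chr5:77407996-77408295, minus strand, for Igfbp7.
Igfbp3: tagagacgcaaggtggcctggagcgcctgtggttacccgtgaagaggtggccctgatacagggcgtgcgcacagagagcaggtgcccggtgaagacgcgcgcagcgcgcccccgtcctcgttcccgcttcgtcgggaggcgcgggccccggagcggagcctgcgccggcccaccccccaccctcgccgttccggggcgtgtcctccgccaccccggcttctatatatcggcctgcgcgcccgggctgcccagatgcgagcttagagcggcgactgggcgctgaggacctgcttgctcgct
Igfbp4: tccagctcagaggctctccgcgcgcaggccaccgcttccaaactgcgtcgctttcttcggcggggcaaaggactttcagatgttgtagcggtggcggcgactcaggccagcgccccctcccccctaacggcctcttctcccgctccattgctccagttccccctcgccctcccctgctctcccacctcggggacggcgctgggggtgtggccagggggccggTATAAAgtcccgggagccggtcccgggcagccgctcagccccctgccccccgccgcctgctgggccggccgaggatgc
Igfbp7: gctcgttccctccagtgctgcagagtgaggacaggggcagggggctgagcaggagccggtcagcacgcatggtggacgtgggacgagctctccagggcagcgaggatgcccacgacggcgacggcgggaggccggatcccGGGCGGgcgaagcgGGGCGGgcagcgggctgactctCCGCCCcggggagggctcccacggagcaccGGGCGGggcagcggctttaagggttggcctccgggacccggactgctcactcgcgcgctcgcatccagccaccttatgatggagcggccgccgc

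The Igfbp7 window held 4 Sp1 motifs, the Igfbp4 window held 1 TATAAA, and the Igfbp3 window held neither of these exact strings. Variants of the motifs, such as the TATATA in the Igfbp3 window, were not searched. Among 32841 such windows, 35.7% held GGGCGG and 13.6% held TATAAA. The AP-1 motif TGACTCA, also searched on both strands, was in none of the 3 windows and in 5.2% of all windows. All 3 windows were rich in CG pairs, with 37 in Igfbp3, 27 in Igfbp4 and 33 in Igfbp7, where the median window had 7. The Igfbp5 window held 10 CG pairs and the Igf1 window 6. The window of Igf1r, which was not called in either day 7 comparison, held 48. The RefSeq window of Igf1 lies 2043 bases from the start of its main measured transcript and is not shown. A match of letters is a description of the window and not a binding site.

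In naive cartilage Igfbp4, Igfbp5 and Igfbp7 were far more abundant than the ligand, while Igfbp3 and Igfbp2 lay below it. On the scale of transcripts-per-million (TPM), which is corrected for length, Igfbp4 led with 80.5 ± 7.59 (SD, n = 6), followed by Igfbp5 at 54.6 ± 9.02, Igfbp7 at 48.6 ± 9 and Igfbp6 at 18.2 ± 6.2. The ligand and both receptors lay close together, with TPM levels of 8.79 ± 1.15 for Igf1, 8.53 ± 1.66 for Igf2r and 8.46 ± 1.17 for Igf1r. Igfbp3 followed at 3.56 ± 0.675 TPM and Igfbp2 at 0.33 ± 0.121 TPM. Igfbp5 exceeded Igfbp7 in 4 of 6 naive libraries, Igf1 exceeded Igf2r in 4, and Igf2r exceeded Igf1r in 4, so these neighbours did not differ beyond their spread. Igfbp6 exceeded Igf1 in 5 of 6 libraries.

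The first place of Igfbp4 rests on one short transcript. Igfbp4-203, a processed transcript of 785 bases without a coding sequence, carried 50.3% ± 4.4 of the Igfbp4 TPM in naive libraries. Counting only protein-coding transcripts, Igfbp4 stood at 36.4 ± 4.89 TPM, below the coding levels of Igfbp5 (54.4 ± 9.11) and Igfbp7 (48.6 ± 9). The same count lowered Igf1r to 6.18 ± 0.687 and Igf2r to 7.07 ± 1.12 coding TPM and left Igf1 at 8.79. Kallisto shares reads between overlapping transcripts by estimation, so a split within a gene is less certain than the gene's sum.

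The ligand changed most. Igf1 lies on chr10:87858265-87937042 (GRCm38, plus strand). Its TMM-scaled CPM in the 6 naive libraries was 78.9, 80.8, 74.4, 111, 74 and 72.6. In the 3 day 7 injured libraries it was 491, 675 and 726. Every injured library lay far above the highest naive library, and the group means were 81.9 ± 14.5 and 631 ± 124. The day 7 injured level was 7.79-fold that of naive, a log2 fold change of 2.96 (SE 0.144, FDR 2.13e-09, edgeR quasi-likelihood test with Benjamini-Hochberg adjustment).

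Day 7 contralateral libraries had Igf1 at 40, 71.8 and 72 CPM. The low value was that of the library that stood apart, and the other pair lay just under the naive range. Against this group the injured knees were higher by a log2 fold change of 3.36 (SE 0.228, FDR 3.19e-08, edgeR), and by 3.16 (FDR 1.75e-07) without day 7 contralateral replicate 1. In TMM-scaled CPM, day 1 libraries lay near naive, at 62.8, 73.8 and 71.1 in contralateral and 102, 76.3 and 97.7 in injured knees. In TPM they lay above the naive range of 7.41 to 10.4. Day 1 contralateral libraries held 10.6 to 10.9 TPM and day 1 injured libraries 11.4 to 19.1 TPM. At day 1 the injured libraries were all above the contralateral ones, by a log2 fold change of 0.41 (SE 0.172), which did not pass (edgeR FDR 0.755).

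One transcript made up most of the Igf1 signal. Igf1-202, a coding transcript of 7052 bases, held 62% ± 6.91 of Igf1 TPM in naive and 72% ± 6.04 in day 7 injured libraries. Its share ranged from 65.8% to 77.9% in injured libraries and overlapped that of naive libraries. The antisense gene Igf1os had at most 31 counts in any library.

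**Figure D1:**
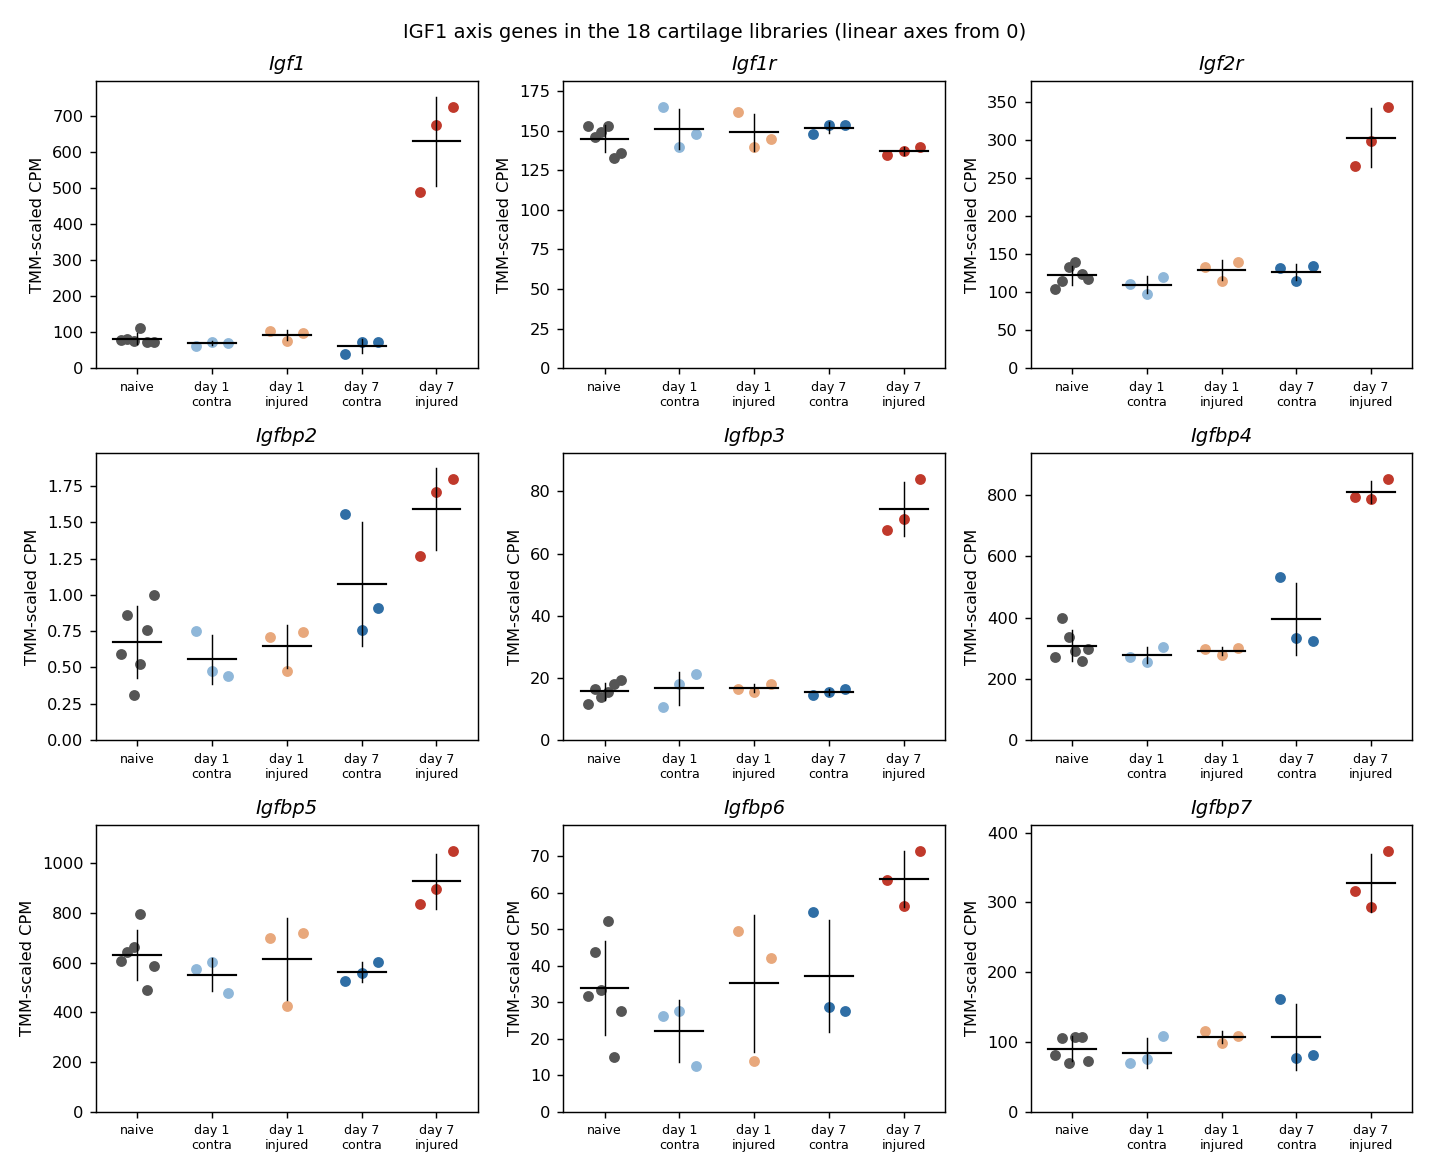
Level of each of the 9 genes in CPM scaled by the trimmed mean of M values (TMM), one point per library, by group (6 naive libraries and 3 in each other group). Horizontal lines are group means, vertical lines 1 SD, and every axis starts at 0 with its own range. The 3 day 7 injured libraries sit between 491 and 726 CPM for Igf1, while Igf1r stays between 133 and 165 CPM in all 18 libraries.

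The signalling receptor gene was not called in either day 7 comparison. Igf1r (chr7:67952827-68233668, plus strand) was at 153, 146, 149, 153, 133 and 136 CPM in naive libraries and at 135, 137 and 140 in day 7 injured libraries. The injured values lay inside the naive range in TMM-scaled CPM. In TPM they did not all do so, at 5.94, 5.98 and 6.6 against 6.31 to 9.63 in naive libraries. The log2 fold change was -0.06 (SE 0.0724, edgeR FDR 0.575). Against day 7 contralateral knees it was -0.14 (edgeR FDR 0.289, and FDR 0.329 at the same value without replicate 1), where contralateral libraries held 148, 154 and 154 CPM. Of the 9 genes Igf1r also had the smallest standard error in the naive comparison.

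The ratio of Igf1 TPM to Igf1r TPM within a library gives the 2 genes side by side. It was 1.05 ± 0.133 in naive, 1.05 ± 0.266 in day 1 contralateral and 1.14 ± 0.136 in day 1 injured libraries. In day 7 contralateral libraries it was 0.671 ± 0.222, with 0.415 in replicate 1 and 0.795 and 0.803 in the others. In day 7 injured libraries it was 5.24, 8.98 and 10.3, a mean of 8.17 ± 2.62, with no overlap with any other group. Both terms of the ratio moved on the TPM scale. From naive to day 7 injured libraries mean TPM went from 8.79 to 50.9 for Igf1 and from 8.46 to 6.17 for Igf1r.

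Igf2r, the clearing receptor, rose at day 7. The gene lies on chr17:12682406-12769664, minus strand. It was between 104 and 139 CPM in naive libraries and at 266, 299 and 343 CPM in day 7 injured libraries. The injured libraries all lay above the naive ones, with a log2 fold change of 1.33 (SE 0.104, edgeR FDR 2.4e-07). Day 7 contralateral libraries held 131, 115 and 134 CPM, within the naive range, and the difference from them was 1.26 (edgeR FDR 2.25e-06), or 1.3 (FDR 1.25e-05) without replicate 1. The antisense gene Airn overlaps Igf2r and had at most 176 counts in any library, against at least 1677 for Igf2r.

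Igfbp3, the main IGF carrier of blood plasma and also a pericellular protein, showed the largest rise among the binding proteins. It is on chr11:7206086-7213923, minus strand. Naive libraries held 11.5, 16.3, 13.9, 15.4, 17.9 and 19.2 CPM. Day 7 injured libraries held 67.6, 71.2 and 84 CPM, all above every other library. The log2 fold change was 2.26 against naive (SE 0.174, edgeR FDR 2.17e-07) and 2.27 against day 7 contralateral knees (edgeR FDR 8.39e-07), whose levels of 14.5, 15.3 and 16.3 CPM lay within the naive range. Without day 7 contralateral replicate 1 the latter was 2.26 (FDR 1.11e-05).

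Igfbp7 lies on chr5:77349240-77408041, minus strand. It ranged from 70.1 to 107 CPM in naive libraries and was at 317, 293 and 374 CPM at day 7 after injury. The log2 fold change was 1.88 against naive (SE 0.16, edgeR FDR 5.92e-07). Against day 7 contralateral libraries, which held 161, 76.4 and 81.9 CPM, it was 1.62 (edgeR FDR 0.000194), and 2.07 (FDR 1.09e-05) without replicate 1, the one contralateral library above the naive range. Polr2b, a gene on the opposite strand, overlaps Igfbp7 and had 795 to 3167 counts. Whether the counting used the strand is not given in the sources used here, so reads of the overlap may not be told apart.

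Igfbp4, a binding protein of bone and cartilage that is cut by PAPPA, lies on chr11:99041244-99054392, plus strand. It was between 257 and 398 CPM in naive libraries and at 795, 787 and 853 CPM in day 7 injured libraries. The injured libraries were all above the others, with a log2 fold change of 1.42 against naive (SE 0.112, edgeR FDR 2.74e-07). Day 7 contralateral replicate 1 again lay apart at 531 CPM, with 334 and 322 CPM in the other pair. The difference from that group was 1.04 (edgeR FDR 0.000421) with replicate 1 and 1.33 (FDR 1.47e-05) without it. Coding transcripts alone went from 36.4 ± 4.89 to 77.3 ± 15.5 TPM.

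Igfbp5, which binds to extracellular matrix, was at the fold threshold. The gene lies on chr1:72857932-72874884, minus strand. Naive libraries held 491 to 794 CPM and day 7 injured libraries 835, 898 and 1050 CPM, so the groups did not overlap on this scale. In TPM they did, at 45.5 to 67.2 in naive and 51 to 82 in day 7 injured libraries. The log2 fold change of 0.57 (SE 0.161, edgeR FDR 0.0151) was a 1.49-fold difference, just under the 1.5-fold limit set for a call. Leaving out naive replicate 3 or 4, or day 7 injured replicate 1 or 2, took it past that limit, at 0.59 to 0.65. Without day 7 injured replicate 3 it was 0.48 and missed the FDR limit as well (FDR 0.0855). Against day 7 contralateral libraries, at 524, 559 and 602 CPM, it rose by 0.72 (edgeR FDR 0.0115), and by 0.7 (FDR 0.0294) without replicate 1. This call was lost without day 7 injured replicate 3 (0.62, FDR 0.0628).

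Igfbp6, which prefers IGF2 over IGF1, was widely spread within the naive group. The gene lies on chr15:102144362-102149511, plus strand. Naive libraries held 31.7, 43.8, 33.3, 52.3, 15 and 27.6 CPM and day 7 injured libraries 63.6, 56.3 and 71.5 CPM. The injured libraries were all above the naive ones on this scale, though not in TPM (24.1 to 35.7 against 8.85 to 27.8). The log2 fold change of 0.93 (SE 0.366) did not pass (edgeR FDR 0.0687). Without naive replicate 4 it was 1.1 (FDR 0.0383). Day 7 contralateral libraries held 54.8, 28.8 and 27.7 CPM, and the difference from them was 0.79 (edgeR FDR 0.241), or 1.2 (FDR 0.109) without replicate 1.

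Igfbp2 was the least abundant of the 9 genes, with 9 to 28 counts per naive library and 27 to 39 per day 7 injured library. It lies on chr1:72824503-72852474, plus strand, 5457 bases from Igfbp5 with no listed gene between them. The means were 0.674 ± 0.248 CPM in naive and 1.6 ± 0.284 CPM at day 7 after injury, and the log2 fold change was 1.27 (SE 0.3, edgeR FDR 0.00521). Against day 7 contralateral knees the difference was 0.61 (edgeR FDR 0.269), where replicate 1 held 1.56 CPM and the other pair 0.758 and 0.912 CPM. Without replicate 1 it was 0.94 (FDR 0.109).

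Over the whole list, 6 of 9 genes were called higher in day 7 injured than naive knees (Igf1, Igf2r, Igfbp2, Igfbp3, Igfbp4 and Igfbp7) and 0 were called lower. A call required FDR at or below 0.05 and at least a 1.5-fold difference. Of all genes tested in this comparison, 10.4% were called higher and 6.11% lower. In TMM-scaled CPM, every injured library lay above every naive library in 8 of the 9 genes, all but Igf1r, as in 17.4% of all genes. In TPM the groups also overlapped for Igfbp2, Igfbp5 and Igfbp6. The median log2 fold change was 1.33 over the 9 genes and -0.04 over all genes tested.

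Against day 7 contralateral knees, 6 of 9 genes were also called higher, with Igfbp5 called and Igfbp2 not, and 0 lower. Among all genes 9.33% were called higher and 3.23% lower, and in 18.6% every injured library lay above every contralateral one. Leaving out replicate 1 kept 6 of 9 genes called. Both comparisons share the 3 injured libraries and are not independent of each other.

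**Figure D2:**
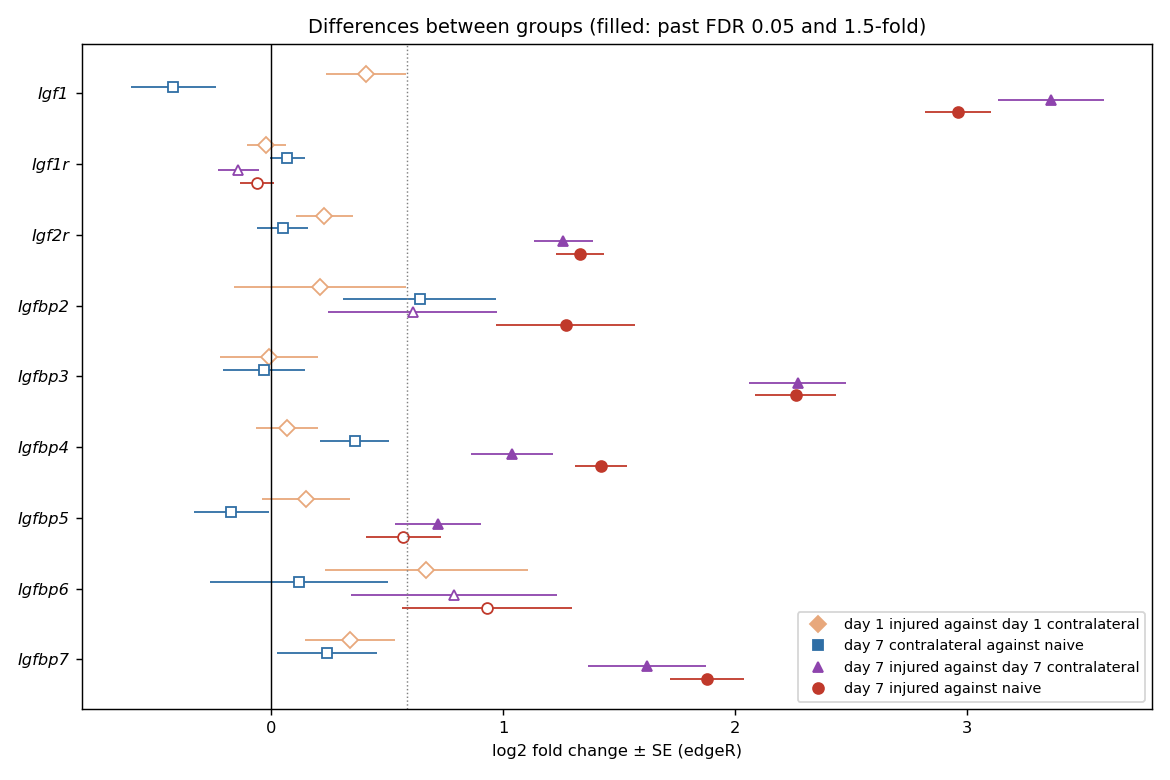
Log2 fold change of each gene in 4 comparisons, with bars of 1 SE from the edgeR fit. Filled symbols passed FDR 0.05 and the 1.5-fold limit, which the dotted line marks on the higher side. Both day 7 injured comparisons lie far to the right for Igf1 (2.96 and 3.36) and Igfbp3 (2.26 and 2.27), and near 0 for Igf1r.

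No member was called at day 1. Day 1 injured against naive gave log2 fold changes from -0.08 for Igfbp4 to 0.25 for Igfbp7, each with overlapping groups in TMM-scaled CPM. In TPM, every day 1 injured library lay above every naive library for Igf1, Igf1r, Igf2r, Igfbp3 and Igfbp7. The share of all genes that did so in TPM was not counted. Outside the list, Insr, Irs2 and Grb10 did the same, while Igf2 and Htra1 overlapped. Igfbp7 was at 85 ± 14.9 TPM in day 1 injured and 48.6 ± 9 TPM in naive libraries. The differences in TPM were not tested. In edgeR 0 of all genes were called (0%), with 959 at an unadjusted p under 0.05. DESeq2 called 15 genes and limma-voom 0, none of them in the list. Day 1 injured against day 1 contralateral likewise gave 0 calls by each of the 3 tools (0% of genes, 1383 at an unadjusted p under 0.05), with members between -0.02 for Igf1r and 0.67 for Igfbp6 (SE 0.439).

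The control groups were compared with each other in the same way. Day 1 contralateral against naive gave 0 edgeR calls (0%, with 554 genes at an unadjusted p under 0.05), 2 by DESeq2 and 0 by limma-voom. Day 7 contralateral against naive gave 0 edgeR calls (0%, with 3220 genes at an unadjusted p under 0.05), 8 by DESeq2 and 0 by limma-voom, again with no member among them. In that comparison all 3 contralateral libraries lay below all naive libraries for Igf1 in TMM-scaled CPM, though not in TPM. The log2 fold change was -0.42 (SE 0.185, edgeR FDR 0.307), and -0.19 (FDR 0.946) without replicate 1.

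Between day 1 and day 7 after injury, 7 of 9 genes were called higher, all except Igf1r and Igfbp6, and 0 lower. Among all genes 9.04% were called higher and 6.38% lower at day 7. Igf1 was 6.94-fold higher (log2 fold change 2.79, SE 0.183, edgeR FDR 1.26e-07) and Igfbp3 4.54-fold higher (2.18, SE 0.217, FDR 7.35e-06). Igfbp2 (1.32, FDR 0.0139) and Igfbp5 (0.61, FDR 0.0304) were lost when single libraries were left out. Igfbp2 was lost without day 1 injured replicate 2 (1.13, FDR 0.061) or day 7 injured replicate 3 (1.22, FDR 0.0525). Igfbp5 was lost without the same libraries (0.39, FDR 0.119, and 0.52, FDR 0.106) or without day 7 injured replicate 2 (0.63, FDR 0.0608).

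The injury effect, right against left knee, was then tested for a difference between the days. It was larger at day 7 by a log2 value of 2.95 for Igf1 (SE 0.302, edgeR FDR 2.77e-05), 2.27 for Igfbp3 (FDR 0.000157), 1.03 for Igf2r (FDR 0.00242) and 0.97 for Igfbp4 (FDR 0.0351). Of all genes, 3.53% had a larger effect at day 7. Without day 7 contralateral replicate 1 the values were 2.75 for Igf1 (FDR 2.75e-05), 2.26 for Igfbp3 (FDR 0.000558) and 1.08 for Igf2r (FDR 0.00287), beside 4.09% of all genes. Igfbp7, at 1.28, missed the threshold (FDR 0.0511) and passed without day 7 contralateral replicate 1 (1.73, FDR 0.00198) or day 1 contralateral replicate 1 (1.41, FDR 0.0486). The Igfbp4 call was lost in 10 of the 12 single leave-outs, as without day 1 contralateral replicate 3 (0.88, FDR 0.121), and held at 1.27 (FDR 0.00124) without day 7 contralateral replicate 1.

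The sum of binding protein transcripts was larger at day 7 after injury and differently made up. Summed over Igfbp2 to Igfbp7, it was 206 ± 17.4 TPM in naive libraries, between 191 and 234, and 366, 403 and 517 TPM in day 7 injured libraries. On the TMM-scaled CPM scale the same sum was 1080 ± 141 in naive libraries and 2079, 2107 and 2431 in day 7 injured libraries, so these groups did not overlap on either scale.

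Other groups depended on the scale. Day 1 injured libraries held 292, 233 and 391 TPM, against a naive mean of 206, but 1178, 831 and 1189 in TMM-scaled CPM, within or below the naive range of 888 to 1260. Day 7 contralateral replicate 1 had the lowest sum of any library in TPM, at 111 beside 260 and 215 in the others. In TMM-scaled CPM it had the highest sum outside the day 7 injured group, at 1287 beside 1014 and 1050.

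Within this sum the share of Igfbp7 was 23.7% ± 4.39 in naive and 33.6% ± 2.02 in day 7 injured libraries, with ranges of 18.7% to 31.6% and 32.3% to 36%. The share of Igfbp5 was 26.4% ± 2.76 in naive and 15.3% ± 1.24 in injured libraries, again without overlap (22.9% to 28.7% and 13.9% to 16.3%). In day 7 contralateral libraries the Igfbp5 share was 15.7% in replicate 1, inside the injured range, and 23.8% and 25.6% in the others. Igfbp3 took 1.74% ± 0.396 and 3.2% ± 0.228. Igfbp4 took 39.2% ± 3.58 and 41.1% ± 3.07, with overlapping ranges.

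These sums and shares include the non-coding transcript Igfbp4-203. Over protein-coding transcripts alone the sum was 161 ± 15.9 TPM in naive and 330 ± 75.9 TPM in day 7 injured libraries, without overlap, and the share of Igfbp4 was 22.6% ± 3.22 and 23.5% ± 1.33. Igfbp7 then took 30.2% ± 5.75 and 43.9% ± 1.47, and Igfbp5 33.6% ± 2.99 and 19.6% ± 0.522, both still without overlap.

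Igf1 was also set against the sum over all transcripts. Its TPM was 4.26% ± 0.415 of the Igfbp sum in naive libraries, between 3.72% and 4.96%. In day 7 injured libraries it was 8.5%, 13.3% and 13.1%. These are ratios of transcripts, and no protein was measured.

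**Figure D3:**
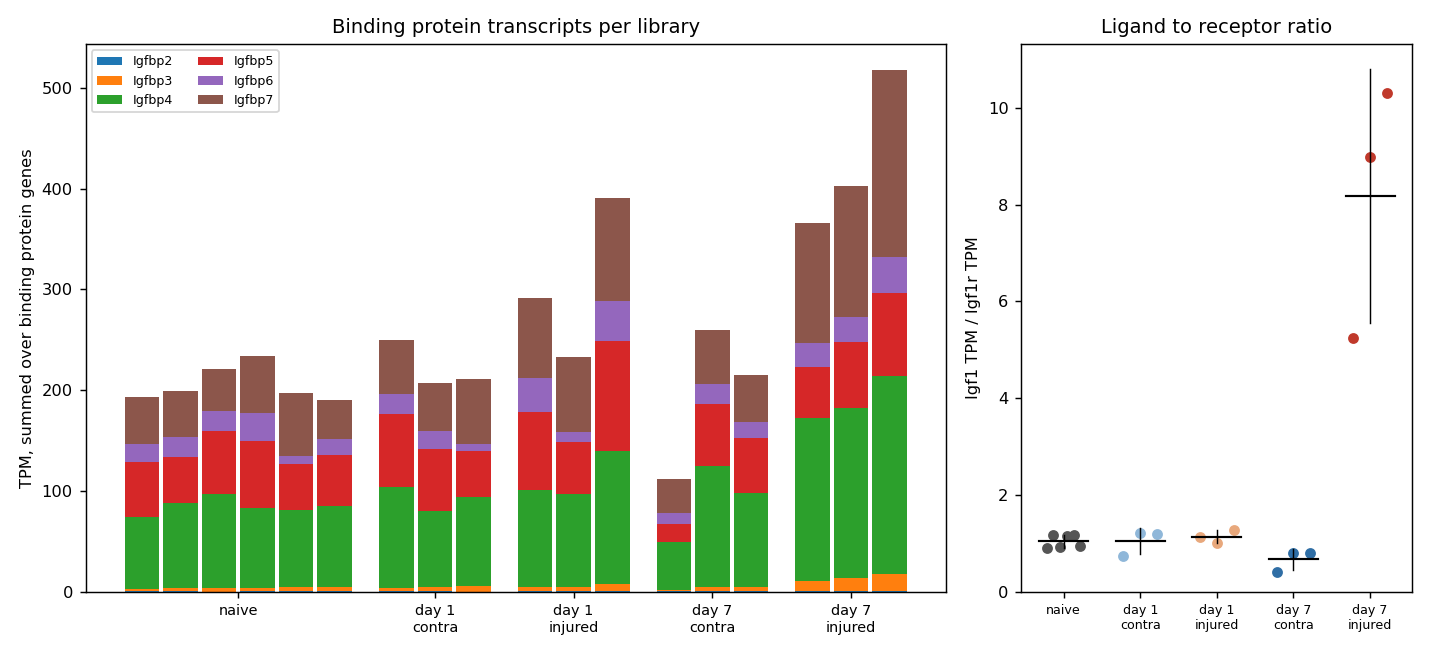
Left, TPM of the 6 binding protein genes stacked for each of the 18 libraries, in order of group and replicate. Right, the ratio of Igf1 to Igf1r TPM per library, with group means and 1 SD. The stacks reach 366 to 517 TPM in day 7 injured libraries against 191 to 234 in naive libraries, and the ratio is 5.24 to 10.3 against 0.899 to 1.18.

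The rest of the pathway was read from a list of 58 genes, of which 52 passed the filter. Igfbp1, Ins1 and Ins2 had no count in any library. At a floor of 3 counts this allows up to 0.191 CPM in the library with the lowest total. That limit is CPM without TMM scaling and covers counting error only. Insrr, Igfbpl1 and Irs4 also did not pass. Against naive, 12 of the 52 genes were called higher at day 7 and 0 lower, where 10.4% of all genes were called higher and 6.11% lower. Their median log2 fold change was 0.11, against -0.04 over all genes. Against day 7 contralateral knees 10 were called higher and 1, the catalytic PI3K subunit gene Pik3cd, lower, where 9.33% of all genes were called higher and 3.23% lower. Without day 7 contralateral replicate 1, 12 of 53 tested genes were called higher and 0 lower (9.31% and 1.99% of all genes), and Pik3cd (-0.7, FDR 0.0043 with it) was not called (-0.42, FDR 0.0261). Pik3cd was named after its value was seen.

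Igf2, the second ligand, rose together with Igf1. It was at 10.1, 7.69, 9.61, 10.5, 6.17 and 8.2 CPM in naive and at 49, 61.6 and 89.6 CPM in day 7 injured libraries. The groups did not overlap, and the log2 fold change of 2.95 against naive (SE 0.268, edgeR FDR 1.03e-06) stood beside 2.96 for Igf1. Insr, the insulin receptor gene, had 104 ± 8.78 CPM in naive and 103 ± 2.72 CPM in injured libraries and a log2 fold change of 0.01. Igfals, whose product stabilises the circulating complex of IGF and IGFBP3, was at 2.08 ± 0.505 and 1.52 ± 0.225 CPM and was not called.

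Among 7 proteases of binding proteins and their inhibitors, 3 were called higher against naive and 3 against day 7 contralateral knees, beside 10.4% and 9.33% of all genes. Htra1, a secreted serine protease, was at 55.1 ± 9.74 CPM in naive libraries and at 244, 254 and 320 CPM in day 7 injured libraries (log2 fold change 2.33, edgeR FDR 9.34e-08). Adam12, a metalloproteinase that can cut IGFBP3 and IGFBP5, was at 39.8 ± 18.6 CPM in naive and 150, 190 and 244 CPM in injured libraries (2.31, edgeR FDR 0.00012). Stc1, whose product stanniocalcin inhibits PAPPA, was at 3.03 ± 0.587 CPM in naive and 8.17, 7.35 and 11.9 CPM in injured libraries (1.6, edgeR FDR 5.92e-06). Pappa itself, the protease of IGFBP4, was at 29.5 ± 3.67 and 33.6 ± 1.73 CPM, with a log2 fold change of 0.2 that was not called. Pappa2 (0.12) and Stc2 (-0.36) were not called either.

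Of 8 tested adaptors 3 were called higher against naive and 2 against day 7 contralateral knees, again beside 10.4% and 9.33% of all genes. Grb10, an adaptor that restrains signalling from the insulin and IGF1 receptors, was at 55.8 ± 5.05 CPM in naive libraries and 223, 282 and 352 CPM after injury (log2 fold change 2.37, edgeR FDR 4.61e-09). Irs1, the main substrate of the receptor kinase, was at 65.5 ± 10.5 and 128 ± 15.8 CPM (0.98), while Irs2 was at 49.8 ± 4.48 and 43.2 ± 3.98 CPM (-0.18, not called). Grb14, a relative of Grb10, gave 0.64 against naive and was not called against day 7 contralateral knees (0.5, edgeR FDR 0.115, and 0.52, FDR 0.16, without replicate 1).

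Of 19 genes of the PI3K, Akt and mTOR steps, 2 were called higher against naive, a share close to the 10.4% of all genes. They were the regulatory subunit genes Pik3r3 (1.45) and Pik3r2 (0.66). None of 4 Foxo factor genes was called. On the growth hormone side 3 of 8 genes were called against naive, the feedback inhibitors Socs3 (1.43), Socs2 (1.27) and Socs1 (1.14), while the growth hormone receptor gene Ghr had a log2 fold change of 0.13. Socs2 was at 10.9 ± 1.14 CPM in naive and 26.1 ± 3.61 CPM in injured libraries. Of these 8 genes Socs2 alone was called against day 7 contralateral knees, where 9.33% of all genes were called higher. Its log2 fold change there was 1.28 (edgeR FDR 3.8e-05), and 1.22 (FDR 0.000248) without replicate 1. Socs3 was not called there with replicate 1 (1.55, edgeR FDR 0.0542) or without it (1.59, FDR 0.106). Socs1 was not called with replicate 1 (0.8, edgeR FDR 0.11) and was called without it (1.21, FDR 0.0221).

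**Figure D4:**
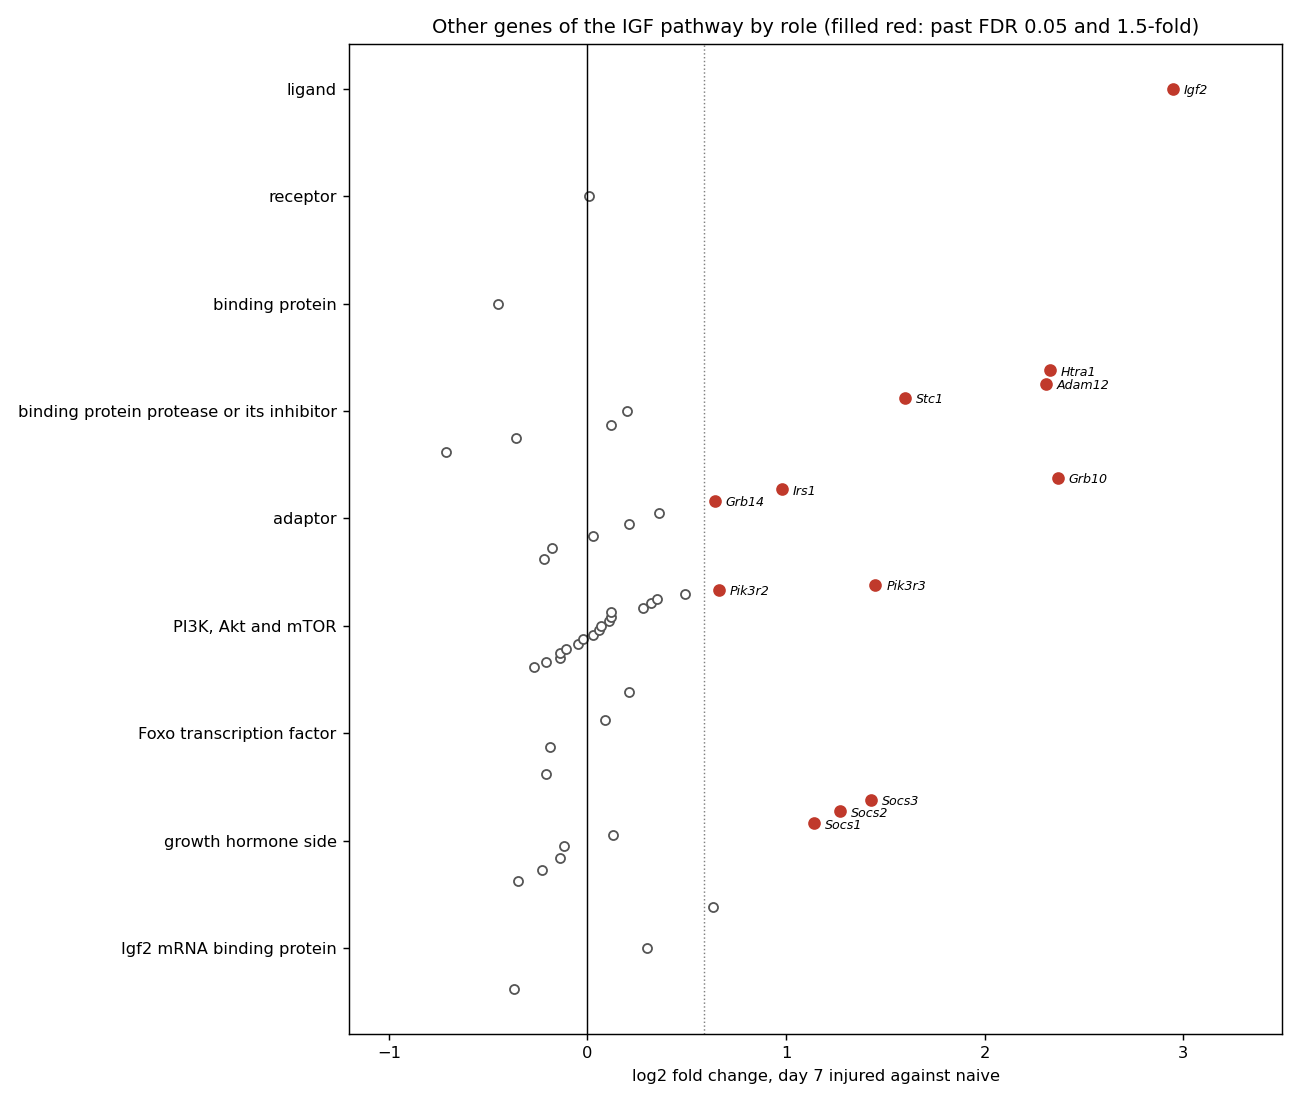
Log2 fold change in day 7 injured against naive libraries of the 52 tested pathway genes outside the list of 9, one point per gene, in rows by role. Filled red points passed FDR 0.05 and the 1.5-fold limit and are named, and the dotted line marks that limit. The 12 called genes are all on the higher side, from 0.64 for Grb14 to 2.95 for Igf2, and most genes of the PI3K, Akt and mTOR row lie near 0.

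Genes whose levels followed each member most closely over the 18 libraries were named as a description. The points share depth and group, so a group difference alone gives a high correlation. For Igf1 they were Igsf10 (Pearson r = 0.993 on log2 CPM) and Sulf2 (r = 0.992), a heparan sulfate sulfatase. Igf2r was followed by the collagen receptor gene Mrc2 and by Col6a2 (r = 0.987 each). Igfbp7 was followed by the fibrillar collagen genes Col5a3 and Col3a1 (r = 0.98 each), and Igfbp3 by Tubb2b (r = 0.977) and Pdia5 (r = 0.975). Igfbp4 was followed by Prkacb (r = 0.971) and Vmac (r = 0.968), Igfbp5 by Ecm2 (r = 0.971) and Cped1 (r = 0.963), Igfbp6 by Rbp4 (r = 0.97) and Nrep (r = 0.955), and Igfbp2 by Tmed4 (r = 0.913) and Meis3 (r = 0.883). For Igf1r no gene came above Wif1 (r = 0.749) and Adcyap1r1 (r = 0.746).

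Markers of cell types moved between the same groups. In bulk cartilage, more cells of a type and more RNA per cell cannot be told apart. Each of 9 lists held 10 genes, all tested, and no gene was at or below 3 counts in every library. The counts of marker genes called against naive stand beside 10.4% of all genes called higher and 6.11% lower, and those against day 7 contralateral knees beside 9.33% and 3.23%. Chondrocyte markers were present in all libraries, with a summed level of 5800 CPM in naive and 9000 CPM in day 7 injured libraries. The groups overlapped, at 4380 to 8080 and 7880 to 9820 CPM. Col2a1, the most abundant of these markers, was at 3240 ± 886 and 3800 ± 276 CPM and was not called (log2 fold change 0.25, edgeR FDR 0.358). Of the 10 chondrocyte markers, 4 rose against naive (Acan, Col11a1, Comp and Sox9) and 0 fell.

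The sum of the synovial fibroblast list did not overlap between the groups. It was between 324 and 478 CPM in naive libraries and at 798, 921 and 951 CPM in day 7 injured libraries, with 4 of 10 genes higher (Pdgfra, Thy1, Cd34 and Dpt) and 0 lower. Pdgfra was its most abundant gene, at 101 ± 13.3 and 249 ± 41.7 CPM. Endothelial markers summed to 592 and 715 CPM, with 4 of 10 higher (Pecam1, Cdh5, Tie1 and Emcn). Vwf, the most abundant of them, was at 255 ± 25 and 195 ± 10.8 CPM (log2 fold change -0.37, edgeR FDR 0.0271) and was not called. The osteoblast and osteocyte sum went from 13200 to 51800 CPM, of which Col1a1 made up 12400 and 50900, with 2 genes higher (Col1a1 and Ibsp) and 2 lower (Sost and Mepe). Day 7 contralateral replicate 1, at 53100 CPM, lay inside the injured range of 47800 to 55600 CPM for this sum. Against the contralateral group 0 genes of this list were called higher and 1, Sost, lower. Without replicate 1 of that group 1 was called higher and 2 lower. Col1a1 was not called with replicate 1 (0.77, edgeR FDR 0.188) and was called without it (1.48, FDR 0.00609).

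Macrophage markers summed to 2600 CPM in both groups, of which Lyz2 made up 1930 and 1760. None of the 10 genes was called in either direction by edgeR, but their median log2 fold change was 0.33. Adgre1 (0.46, edgeR FDR 0.0433), Csf1r (0.31, FDR 0.0421) and C1qb (0.58, FDR 0.00718) passed the FDR limit below the 1.5-fold limit.

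Erythroid and adipocyte sums were lower in day 7 injured than in naive libraries, without overlap. The erythroid sum was 35000 CPM in naive and 22900 CPM in injured libraries (5 of 10 lower, Hbb-bs the most abundant), and the adipocyte sum 588 and 239 CPM (6 lower, Cfd). In each list 6 genes were lower than in day 7 contralateral knees, but without replicate 1 of that group all erythroid calls were lost and 3 adipocyte genes were called lower. The log2 fold changes of the lost calls stayed negative. Alas2 went from -0.66 to -0.54 and Hbb-bt from -1.21 to -0.33. Among lost adipocyte calls Cidec went from -1.75 to -1.8 and Adrb3 from -2.55 to -2.11. The neutrophil sum was 12300 and 9120 CPM (2 lower against naive, Ngp the most abundant), with overlapping groups. Against the contralateral group 4 neutrophil genes were called lower (Ltf, Camp, Retnlg and Ly6g), and without its replicate 1 these were lost and 3 others were called lower (S100a8, S100a9 and Mmp8). The log2 fold changes of the lost genes stayed negative. They went from -0.74 to -0.63 for Ltf, -0.96 to -0.61 for Camp, -0.9 to -0.71 for Retnlg and -0.82 to -0.71 for Ly6g. The skeletal muscle sum also overlapped, at 9990 and 5820 CPM (1 lower, Myh2, with Ttn the most abundant), and day 7 contralateral libraries had a muscle sum of 6070 CPM. No gene of these 4 lists was called higher. The part of these shifts in the values of the IGF1 axis was not tested.

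**Figure D5:**
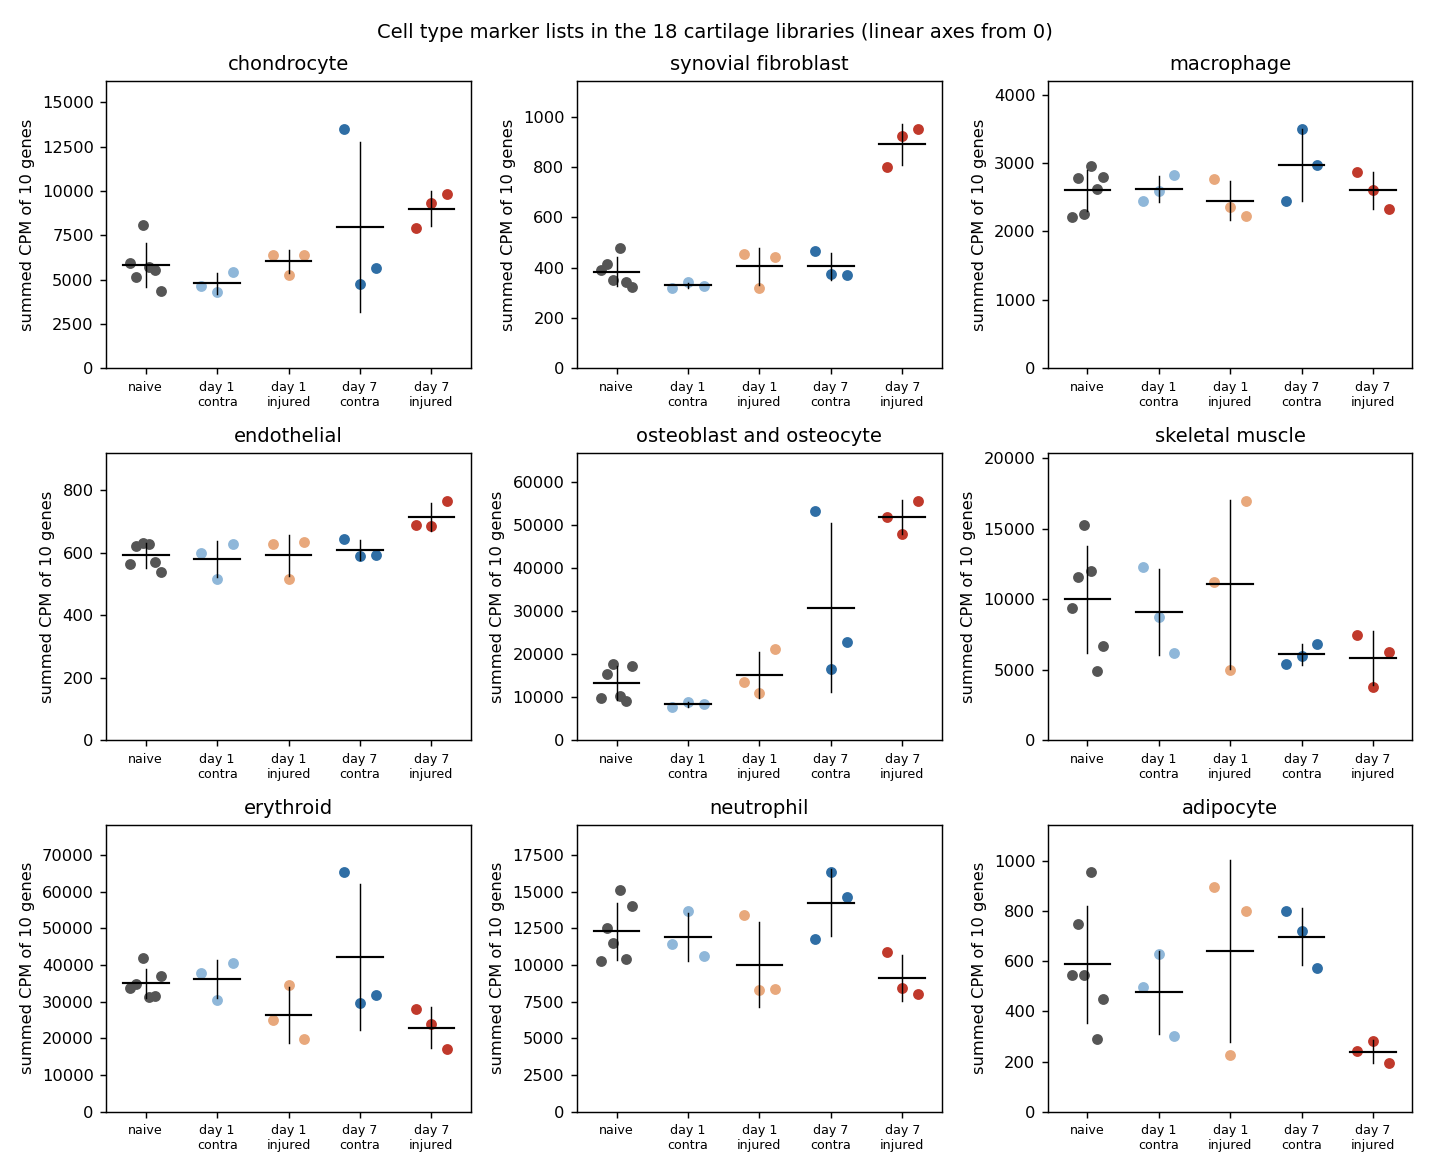
Summed CPM of 10 marker genes for each of 9 cell types, one point per library, by group, with group means and 1 SD. Axes start at 0. The synovial fibroblast sums of day 7 injured libraries (798 to 951) lie above those of all other libraries, day 7 contralateral replicate 1 lies apart for osteoblast and osteocyte (53100) and erythroid (65200) markers, and macrophage sums overlap in all groups.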

How the data were processed

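Total RNA of knee cartilage was sequenced after depletion of ribosomal RNA with a stranded kit. The authors quantified transcripts with Kallisto against mouse build GRCm38 by their methods, while the labels name GRCh38. One library with low mapping was removed by the authors and is not named in the sources used here, so it may be among the 18 libraries fitted. Per the file headers, the deposited tables hold, for each of 137436 transcripts, an estimated count, a TPM value and an effective length. Estimated counts are not normalised, and TPM is scaled to a fixed sum per library. The study also used Trimmomatic, and the labels list DESeq2.

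Transcript identifiers without version were matched to GENCODE M21 (135107 matched, 98.3%), and counts and TPM were summed over 49184 genes. Unmatched transcripts held 0.667% to 3.9% of counts. Summed counts were rounded and tested with edgeR 4.0.16 in R 4.3.3 (TMM factors, filterByExpr, quasi-likelihood F-test). The fit used 15 libraries where the day 7 contralateral group was not compared, and all 18 otherwise. P-values were adjusted over all genes tested (Benjamini-Hochberg, FDR), and the standard error was the log2 fold change divided by the square root of F. Values of one gene across libraries are TMM-scaled CPM, and values set between genes are TPM. Library totals of 16074762 to 41794005 make counting error small for most genes named, but not for those with few counts, such as Igfbp2, Igfals and Stc1.

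In data simulated for day 7 injured against naive, 20840 genes with 200 changed, edgeR called 189 of the changed genes and 5 others. On 20828 genes with 200 changed it called 181 and 3 others for day 7 injured against day 7 contralateral, and 154 and 6 others for the difference in injury effect. DESeq2 1.42.0, limma 3.58.1 (voom), other scaling, filters and length offsets, and leaving out libraries were tried as alternatives. The text names all 9 members, 13 preset pathway genes, up to 8 others with the largest change among called genes without overlap (7 qualified), and the 2 genes most similar to each member by Pearson correlation of log2(CPM + 0.1), at a mean CPM of at least 1. The members and lists were chosen with earlier results of these data known. Naive libraries were compared by the gap of the most distant library for outliers. Replicate numbers only name libraries. Promoter windows are RefSeq sequences on GRCm38.p6.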

Additional observations from a re-analysis of the deposited data

Results flagged for a closer look

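In the naive group 40 quantities were searched for a library far from the other 5, and 4 had one, where chance gives about 1 in 20. Igf1 was at 111 CPM in naive replicate 4, with the next at 80.8. In naive replicate 5, Adam12 was at 75.9, Socs3 at 47.7 and Pappa2 at 14.6 CPM, each the highest of the naive libraries. The injury effect also differed between day 7 and day 1, tested as an interaction with edgeR. The differences were 2.95 for Igf1, 2.27 for Igfbp3, 1.03 for Igf2r and 0.97 for Igfbp4 on the log2 scale. Among other pathway genes they were 2.94 for Igf2 (FDR 0.001), 1.97 for Grb10 (FDR 4.23e-05), 1.76 for Htra1 (FDR 0.00176), 1.63 for Stc1 (FDR 0.00698), 1.04 for Socs2 (FDR 0.0182) and 0.63 for Pik3r2 (FDR 0.00742). Without day 7 contralateral replicate 1 these were 3.06 for Igf2 (FDR 0.00176), 1.97 for Grb10 (FDR 0.000117), 1.93 for Htra1 (FDR 0.00141), 1.51 for Stc1 (FDR 0.0109), 0.98 for Socs2 (FDR 0.0307) and 0.72 for Pik3r2 (FDR 0.0018). All of these were positive, for genes listed because they passed the test. With all 18 libraries, 4 of 9 members and 6 of 52 pathway genes were called higher and 0 lower. Of 21262 genes tested, 750 (3.53%) were called higher and 52 lower.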

How the results depend on the processing

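The count of members called in each comparison stayed within 1.5 times its main value under DESeq2, limma-voom, DESeq2 size factors, no filter on low counts, the length offset, the FDR limit alone, other libraries in the fit and each leave-out. Leaving out single libraries gave 6 to 8 members against naive, 5 or 6 against day 7 contralateral, 5 to 7 against day 1 injured and 3 to 5 for the difference in injury effect. Igfbp5 against naive was called with the length offset (0.6, FDR 0.0144). The Igfbp7 difference in injury effect was called by DESeq2 (FDR 0.0157), limma-voom (FDR 0.0317) and with no filter (FDR 0.0463), and that of Igfbp4 was lost when only the compared groups were fitted (FDR 0.0637). No called value changed sign. Of the pathway genes 12 were called against naive, 18 of 52 by the FDR limit alone (17 higher and 1, Sos2, lower, beside 29.8% of all genes) and 10 to 13 when single libraries were left out. Depth limits Igfbp2 most among the 9 genes, at 9 to 39 counts per library. No paired analysis was possible because replicate numbers follow accession order and the labels do not say which libraries share a mouse pool, which the study's own model allowed for.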
